A study of Mus musculus with 6 samples.

Results

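The 10 genes described here encode receptor chains through which cytokines steer the fate of follicular helper T (Tfh) cells. They are *Il2rb*, *Il2rg*, *Il7r*, *Il4ra*, *Il21r*, *Il6ra*, *Il6st*, *Il12rb1*, *Il12rb2* and *Ifngr1*. They were chosen by name from the 53379 genes in the count files, with earlier results of these data known, and each matched 1 identifier. Tfh cells were sorted as live TCRβ+CD4+CXCR5+PD1+ cells from spleens of female mice immunized with NP-CGG, and RNA of each mouse gave 1 Smart-seq2 library. There were 3 control (CTL) mice and 3 *Prdm1*-CKO mice, and the study immunized mice at an age of 6 to 8 weeks. *Prdm1*-CKO mice carried *Prdm1* fl/fl with a CD11c-driven CRE, which deletes BLIMP-1 in CD11c-high dendritic cells (DCs), so the Tfh cells themselves are not the target of the deletion. CTL mice carried either *Prdm1* fl/fl without CRE or *Prdm1* +/+ with CRE, and the labels do not say which genotype each CTL mouse had. For the *Prdm1*-CKO group the sample titles say KO, whereas the genotype entries say KD.

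Type I receptor chains have no kinase of their own and signal through JAK kinases, which phosphorylate STAT proteins. The IL-2 receptor β chain (*Il2rb*) and the common γ chain (*Il2rg*) carry IL-2 and IL-15 signals to STAT5, which restrains Tfh differentiation. The common γ chain also pairs with the IL-7, IL-4 and IL-21 receptor chains (*Il7r*, *Il4ra* and *Il21r*). IL-6 binds its own receptor chain (*Il6ra*) and signals through gp130 (*Il6st*) and STAT3, and both IL-6 and IL-21 favor Tfh differentiation. The IL-12 receptor chains (*Il12rb1* and *Il12rb2*) signal through STAT4, and the type II chain *Ifngr1* binds IFN-γ.

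Promoter sequences were matched in the RefSeq table of GRCm38.p6 for 8 of the 10 genes. *Il2rb* and *Il12rb1* had no entry. The promoters below are those of *Il6st*, whose level varied most between mice relative to genes of like level, and of *Il7r* and *Il12rb2*, which hold a match to the STAT motif TTCNNNGAA. They are the 250 bases before the RefSeq start site, written 5′ to 3′ on the strand of the gene, and capitals mark the motif.
*Il6st* promoter (chr13:112463820-112464069, plus strand): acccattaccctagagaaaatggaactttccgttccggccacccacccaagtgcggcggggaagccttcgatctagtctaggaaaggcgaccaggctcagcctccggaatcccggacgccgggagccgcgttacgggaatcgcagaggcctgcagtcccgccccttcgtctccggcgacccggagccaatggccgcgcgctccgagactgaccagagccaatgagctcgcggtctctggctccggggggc
*Il7r* promoter (chr15:9529877-9530126, minus strand): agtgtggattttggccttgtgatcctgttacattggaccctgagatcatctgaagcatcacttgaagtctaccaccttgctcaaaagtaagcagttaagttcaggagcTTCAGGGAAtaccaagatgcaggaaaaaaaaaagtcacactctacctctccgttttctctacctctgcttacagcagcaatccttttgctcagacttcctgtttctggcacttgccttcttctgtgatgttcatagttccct
*Il12rb2* promoter (chr6:67376189-67376438, minus strand): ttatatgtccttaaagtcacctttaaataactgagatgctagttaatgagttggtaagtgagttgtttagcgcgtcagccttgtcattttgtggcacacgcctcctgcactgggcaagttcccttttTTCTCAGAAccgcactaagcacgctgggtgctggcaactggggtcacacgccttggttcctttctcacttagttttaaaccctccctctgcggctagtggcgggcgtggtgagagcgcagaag
The motif reads the same on both strands. It was found in 2 of the 8 promoters and in 7.02% of the 32851 promoters of the table. Its first base lay 142 bases before the start site in *Il7r* and 123 bases before it in *Il12rb2*. In GENCODE M21 the *Il7r* window lies inside the non-coding transcript *Il7r-203*, with 86 of its bases in an exon of that transcript and the motif outside its exons, while the *Il6st* and *Il12rb2* windows lie in no transcript of their gene. A match is a description of the letters and was not tested as a binding site. The promoter of *Il6st* held 26 CpG, more than 90.4% of the promoters in the table, and that of *Il7r* held 1. The other promoters held 18 CpG in *Il6ra*, 17 in *Il4ra*, 11 in *Ifngr1*, 10 in *Il12rb2*, 4 in *Il21r* and 3 in *Il2rg*, against a median of 6. In GENCODE M21, 151 of the 250 bases of the *Il4ra* window lie in an exon of the protein-coding transcript *Il4ra-201*.

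Total counts per mouse lay between 7147601 and 16973392, and 3 counts, taken as the floor of a library, were 0.169 to 0.444 CPM. CPM here are counts scaled to library size with TMM factors. CTL replicate 2 stood apart from the other mice. It lay at 135 on the first principal component, where the other 5 mice lay between -29.1 and -24. Without this mouse, the log2 fold changes described below were -0.16 for *Il2rb*, -0.13 for *Il2rg*, 0.15 for *Il4ra*, -0.14 for *Il21r* and -0.15 for *Il12rb1*, and the values for the other 5 genes stand beside each result. The defining Tfh genes *Cxcr5* (254 to 477 CPM), *Pdcd1* (188 to 385 CPM) and *Bcl6* (66 to 124 CPM) were present in all 6 mice. *Foxp3*, which marks regulatory cells, was at 134 to 182 CPM, and the gate described for these libraries did not use FOXP3. *Prdm1* was at 28.9, 30 and 27.5 CPM in CTL mice and at 30.2, 30.8 and 30.9 CPM in *Prdm1*-CKO mice, which does not check the labels, since the deletion is in other cells.

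None of the 10 genes differed between *Prdm1*-CKO and CTL Tfh cells by edgeR's quasi-likelihood test. All 10 passed the expression filter and were tested among 14555 genes, and the adjusted p was under 0.05 for 0 of them in either direction, as it was for 0% of all genes. At an unadjusted p under 0.05 there were also 0 of the 10, against 2.35% of all genes tested (0.928% higher and 1.42% lower), and DESeq2's Wald test gave 0 at either threshold, against 2.62% of its genes at an unadjusted and 0.0531% at an adjusted p under 0.05. The adjusted p from edgeR lay between 0.996 and 0.998. The 2 groups overlapped in each of the 10 genes, whereas they did not overlap in 8.42% of all genes tested (4.56% higher and 3.86% lower). The log2 fold change was above 0 in 4 genes and below 0 in 6, with a median of -0.07, and it was above 0 in 51.1% and below 0 in 48.9% of all genes, with a median of 0.010. For 5 genes, *Il2rb*, *Il2rg*, *Il21r*, *Il6ra* and *Il12rb1*, the 95% interval of the difference lay within a 1.5-fold change in either direction. For the other 5 it reached beyond 1.5-fold, so the data do not exclude a change of that size in at least 1 direction. These are bulk samples, in which fewer cells with a transcript and less transcript per cell cannot be told apart.

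**Figure D1:**
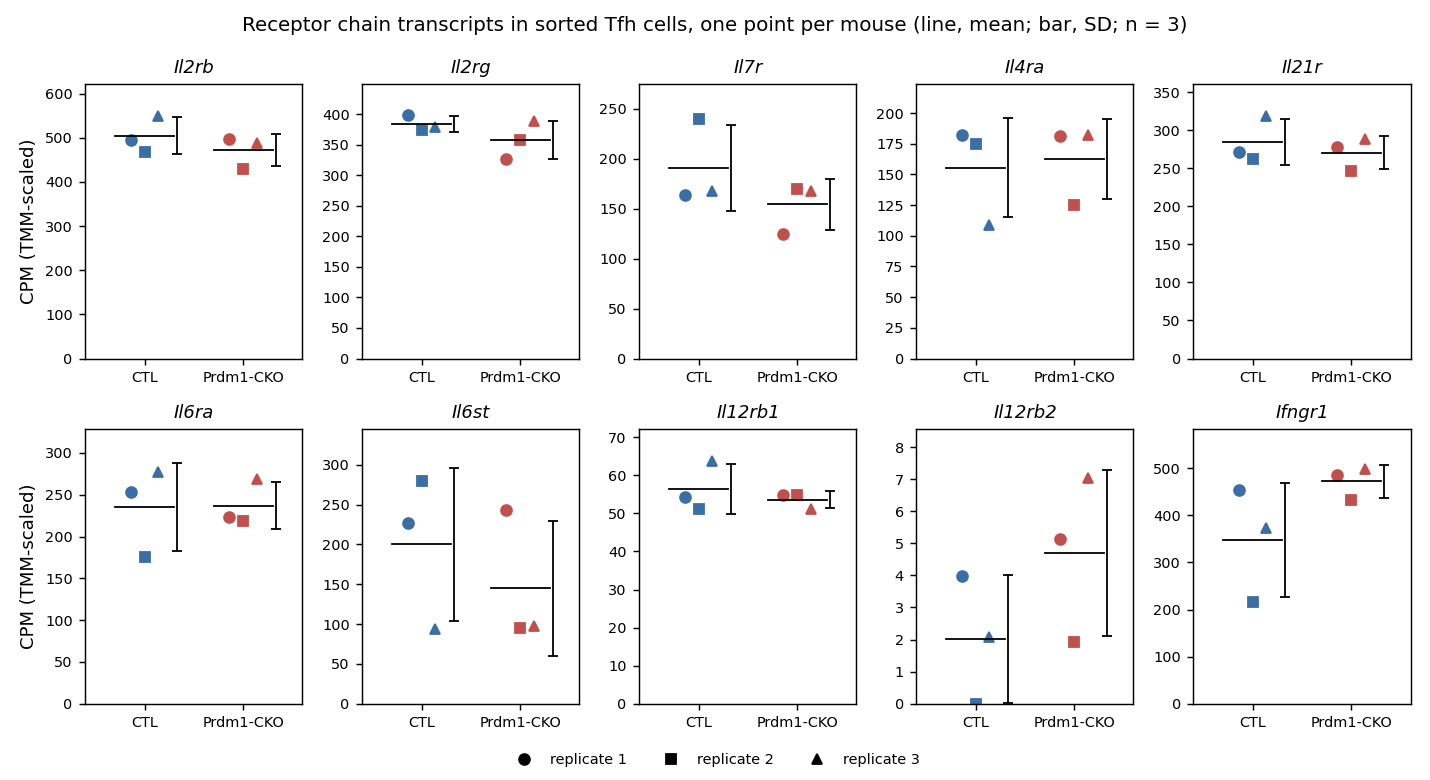
TMM-scaled CPM of the 10 receptor chain genes in each of 3 CTL and 3 *Prdm1*-CKO mice, with 1 panel per gene and an axis from 0; lines are means and bars are SD (n = 3). The groups overlap in every panel, *Il6st* has 3 mice near 95 CPM and 3 above 226 CPM across both groups, and *Il12rb2* has 0 in CTL replicate 2.

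The chains of the IL-2 receptor were among the most abundant and most even of the genes. *Il2rb*, on chromosome 15 of GRCm38 from 78479256 to 78495271, was at 496, 468 and 550 CPM in CTL replicates 1 to 3 and at 498, 430 and 489 CPM in the *Prdm1*-CKO mice with these numbers. The groups overlapped, and the log2 fold change was -0.10 (standard error 0.13, 95% interval -0.40 to 0.21, adjusted p = 0.996 from edgeR). It was -0.02 without CTL replicate 3, and likewise -0.02 without *Prdm1*-CKO replicate 2. *Il2rg*, on chromosome X from 101264378 to 101268255, was at 398, 374 and 379 CPM in CTL mice and at 326, 357 and 389 CPM in *Prdm1*-CKO mice. Its lowest level was that of *Prdm1*-CKO replicate 1, and the log2 fold change was -0.10 (standard error 0.13, 95% interval -0.40 to 0.20, adjusted p = 0.996 from edgeR), or -0.03 without that mouse and -0.17 without *Prdm1*-CKO replicate 3. The highest mouse exceeded the lowest by 1.28-fold for *Il2rb* and by 1.22-fold for *Il2rg*. In the annotation, 30.5% of the exon bases of *Il2rg* are shared with *Gm20489*, a gene model on the same strand, which was listed at 3 counts in CTL replicate 2 and at 0 in the other mice.

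*Il7r*, the chain for the survival cytokine IL-7, was higher in CTL replicate 2 than in the other mice. On chromosome 15 from 9505788 to 9530176, it was at 164, 240 and 168 CPM in CTL mice and at 125, 170 and 168 CPM in *Prdm1*-CKO mice. CTL replicate 2 was the highest of the 6 and *Prdm1*-CKO replicate 1 the lowest, while the other 4 mice lay between 164 and 170 CPM. The log2 fold change was -0.31 (standard error 0.21, 95% interval -0.78 to 0.17, adjusted p = 0.996 from edgeR), and it was -0.12 without the highest mouse and -0.17 without the lowest.

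*Il4ra* and *Il21r* both lie on chromosome 7, from 125552120 to 125579474 and from 125603429 to 125633570. *Il4ra*, which binds IL-4 and signals through STAT6, was at 182, 175 and 109 CPM in CTL mice and at 181, 125 and 182 CPM in *Prdm1*-CKO mice. CTL replicate 3 and *Prdm1*-CKO replicate 2 were low, and the other 4 mice lay between 175 and 182 CPM. The log2 fold change was 0.06 (standard error 0.24, 95% interval -0.48 to 0.61, adjusted p = 0.996 from edgeR), and its direction turned to -0.13 without CTL replicate 3, to -0.01 without *Prdm1*-CKO replicate 1 and to -0.02 without *Prdm1*-CKO replicate 3. *Il21r*, the receptor for the Tfh cytokine IL-21, was at 272, 262 and 319 CPM in CTL mice and at 278, 246 and 288 CPM in *Prdm1*-CKO mice. The highest mouse exceeded the lowest by 1.3-fold, and the log2 fold change was -0.07 (standard error 0.14, 95% interval -0.40 to 0.26, adjusted p = 0.996 from edgeR). It turned to 0.03 without CTL replicate 3 and to 0.00026 without *Prdm1*-CKO replicate 2. In CTL replicate 3, where *Il4ra* was lowest, *Il21r* was highest, whereas *Prdm1*-CKO replicate 2 was low for both genes.

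The chains of the IL-6 receptor behaved differently from each other. *Il6ra*, on chromosome 3 from 89864059 to 89913196, was at 253, 176 and 277 CPM in CTL mice and at 223, 218 and 269 CPM in *Prdm1*-CKO mice. CTL replicate 2 was the lowest, and the log2 fold change of 0.01 (standard error 0.20, 95% interval -0.44 to 0.46, adjusted p = 0.998 from edgeR) turned to -0.17 without it and to -0.09 without *Prdm1*-CKO replicate 3. *Il6st*, on chromosome 13 from 112464070 to 112510086, was at 227, 280 and 93.2 CPM in CTL mice and at 243, 94.7 and 97.7 CPM in *Prdm1*-CKO mice. It was high in CTL replicates 1 and 2 and in *Prdm1*-CKO replicate 1, low in the other 3 mice, and at no level between 97.7 and 227 CPM. Each group held both levels. The log2 fold change was -0.46 (standard error 0.47, 95% interval -1.54 to 0.62, adjusted p = 0.996 from edgeR), and leaving out each mouse in turn gave values from -1.05 without *Prdm1*-CKO replicate 1 to -0.15 without CTL replicate 2. At an unadjusted p under 0.05 the fit without *Prdm1*-CKO replicate 1 gave *Il6st* as lower, with an adjusted p of 1 from edgeR.

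The spread of *Il6st* was large for a gene of its level. The SD of its log2 CPM within groups, pooled over both groups, was 0.81, above that of 99.6% of the 500 tested genes nearest to it in level, whose median SD was 0.22. Without CTL replicate 2 the SD was 0.82, above 99.2% of such genes. The depth of the 3 mice with high *Il6st* was 14177558, 8623180 and 16973392 counts, and that of the 3 mice with low *Il6st* was 7147601, 9753574 and 14885913 counts. The part of depth in this split was not tested. *Il6st* has the longest exon union of the 10 genes, at 11099 bp. The 2104 tested genes with over 8000 bp of exon had a median deviation from their own mean, on the log2 scale, of 0.13, 0.24 and -0.12 in CTL mice and -0.06, 0.01 and -0.05 in *Prdm1*-CKO mice. The deviations of *Il6st* were 0.56, 0.86 and -0.72 in CTL mice and 0.66, -0.70 and -0.65 in *Prdm1*-CKO mice, and the part of exon length in them was not tested. Of the 41 other receptor chain, JAK and STAT genes compared, *Jak1*, a kinase that associates with gp130, was nearest in pattern over the 6 mice, at a Euclidean distance of 0.87 in centred log2 CPM. *Jak1* was at 991, 888 and 362 CPM in CTL mice and at 841, 527 and 618 CPM in *Prdm1*-CKO mice, with the same 3 mice above the other 3.

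**Figure D2:**
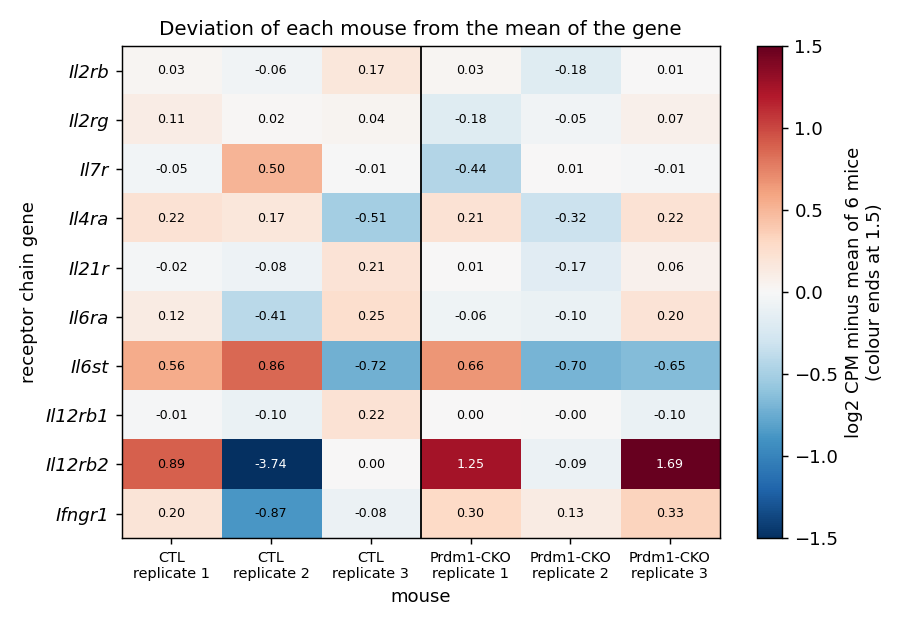
Deviation of log2 CPM from the mean of the 6 mice, for each of the 10 genes (rows) in each mouse (columns; CTL left of the line, *Prdm1*-CKO right of it); colours end at 1.5 and values are printed. *Il6st* lies at 0.56 to 0.86 in 3 mice and at -0.72 to -0.65 in the other 3, and CTL replicate 2 lies at -3.74 for *Il12rb2* and -0.87 for *Ifngr1*.

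The IL-12 receptor chains had the lowest CPM of the 10 genes. *Il12rb1*, on chromosome 8 from 70808449 to 70821424, was at 54.3, 51.1 and 63.8 CPM in CTL mice and at 54.9, 54.8 and 51.1 CPM in *Prdm1*-CKO mice. Its levels were even, with an SD within groups above that of only 9% of the 500 genes nearest in level, and the log2 fold change was -0.07 (standard error 0.17, 95% interval -0.47 to 0.33, adjusted p = 0.996 from edgeR), turning to 0.03 without CTL replicate 3. *Il12rb2*, the chain that makes T cells responsive to IL-12, had 58, 0 and 14 counts in CTL mice and 91, 19 and 103 counts in *Prdm1*-CKO mice. These were 3.97, 0 and 2.07 CPM and 5.13, 1.93 and 7.05 CPM. Although both *Prdm1*-CKO replicates 1 and 3 exceeded all CTL mice, *Prdm1*-CKO replicate 2 was below CTL replicates 1 and 3. In CTL replicate 2 a count of 0 allows a level of up to 0.355 CPM. The log2 fold change was 1.20 (standard error 1.10, 95% interval -1.32 to 3.72, adjusted p = 0.996 from edgeR), and the interval spans from 0.4-fold to 13.2-fold. It was 0.62 without CTL replicate 2, 0.79 without *Prdm1*-CKO replicate 3, 2.19 without CTL replicate 1 and 1.88 with the replicate number as a block. *Il12rb2* lies on chromosome 6 from 67291318 to 67376188, and 40% of its exon bases are shared with *Serbp1* on the opposite strand. *Serbp1* was at 356 to 422 CPM, the Smart-seq2 method does not mark strand, and how reads on shared bases were counted is not given in the sources used here. *Cd8a*, *Cd8b1*, *Nkg7*, *Gzma*, *Klrd1* and *Ncr1*, markers of CD8 and NK cells, which also respond to IL-12, were all detected and summed to 213 to 276 CPM in CTL mice and 176 to 206 CPM in *Prdm1*-CKO mice, without overlap. The sum was mostly *Nkg7* (121 to 188 CPM). *Cd8b1* went the other way, at 10, 13.7 and 10.7 CPM in CTL mice and 14.7, 14.6 and 17.1 CPM in *Prdm1*-CKO mice, and *Klrd1* was highest in *Prdm1*-CKO replicate 3 at 34.2 CPM. The part of such cells in the levels of the IL-12 receptor chains was not tested.

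*Ifngr1*, the ligand-binding chain of the IFN-γ receptor, had the smallest p of the 10 genes. It lies on chromosome 10 from 19591949 to 19610229 and was at 454, 217 and 373 CPM in CTL mice and at 486, 433 and 498 CPM in *Prdm1*-CKO mice. Although *Prdm1*-CKO mice were higher on average, *Prdm1*-CKO replicate 2 was below CTL replicate 1, and CTL replicate 2 was the lowest of the 6. The log2 fold change was 0.44 (standard error 0.25, 95% interval -0.13 to 1.01, unadjusted p = 0.115 and adjusted p = 0.996 from edgeR). It was 0.66 without CTL replicate 1 and 0.18 without CTL replicate 2, and in the latter case the means were 472 CPM in *Prdm1*-CKO mice and 414 CPM in CTL mice. The exact permutation test of 3 mice against 3, two-sided, gave p = 0.2, and the smallest p it allows is 0.1. With the replicate number as a block, the unadjusted p fell under 0.05 and the adjusted p was 0.992 from edgeR.

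Marker genes of macrophages and monocytes, cells that also respond to IFN-γ, were found in these libraries, although the TCRβ+CD4+ gate would leave out macrophages as well as CD8 and NK cells. All 8 of *Csf1r*, *Adgre1*, *C1qa*, *C1qb*, *C1qc*, *Cd68*, *Vcam1* and *Spic* were detected, none was at 0 in any mouse, and they summed to 1396, 499 and 751 CPM in CTL mice and to 1245, 1024 and 1417 CPM in *Prdm1*-CKO mice. The lowest sum was that of CTL replicate 2, the mouse with the lowest *Ifngr1*, and the highest was that of *Prdm1*-CKO replicate 3, the mouse with the highest *Ifngr1*. Plasma cell markers had the same lowest and highest mice, with sums of 715, 478 and 642 CPM in CTL mice and 713, 831 and 917 CPM in *Prdm1*-CKO mice. B cell markers summed to 178, 107 and 120 CPM in CTL mice and 236, 150 and 216 CPM in *Prdm1*-CKO mice. The gate would leave out these cells too. The part of any of these cells in the level of *Ifngr1* was not tested. The 7 T cell markers, all detected, summed to 4528 to 5297 CPM in CTL mice and to 4480 to 4519 CPM in *Prdm1*-CKO mice, also without overlap. *Cd4* (896 to 1061 against 774 to 847 CPM) and *Cd28* (447 to 510 against 338 to 398 CPM) accounted for this, and the other 5 markers summed to 3174, 3183 and 3819 CPM in CTL mice and to 3321, 3347 and 3269 CPM in *Prdm1*-CKO mice, with overlap. Their part in the levels of the 10 genes was not tested.

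**Figure D3:**
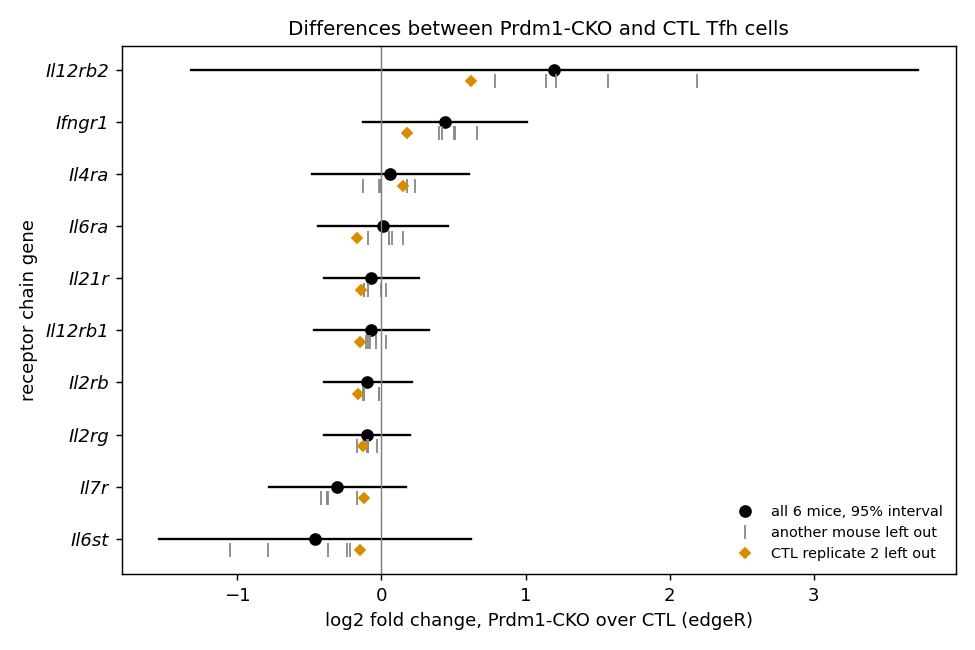
Log2 fold change of each of the 10 genes in *Prdm1*-CKO over CTL Tfh cells from edgeR (black points, 3 mice against 3; black lines, 95% interval), with the values after leaving out CTL replicate 2 (diamonds) or another mouse (ticks). All 10 intervals include 0, and without CTL replicate 2 *Ifngr1* lies at 0.18 and *Il12rb2* at 0.62.

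Levels of different genes were compared as CPM per kb of exon. *Il2rg* had the highest mean over the 6 mice, at 155 CPM per kb, followed by *Ifngr1* at 144, *Il2rb* at 114 and *Il21r* at 83.5. These 4 genes were above at least 96.2% of the tested genes by this measure. *Il7r* (37), *Il6ra* (27.3) and *Il4ra* (26.5) formed the middle of the order, and *Il6st* (15.5) and *Il12rb1* (13.4) the lower part. *Il12rb2*, at 0.886 CPM per kb, was above 14.1% of tested genes. Between neighbors in this order, all mice of the first gene were above all mice of the second for *Il2rb* over *Il21r*, *Il21r* over *Il7r* and *Il12rb1* over *Il12rb2*. The other 6 neighboring pairs overlapped over the 6 mice, among them *Il2rg* and *Ifngr1*. *Il2rg* was above *Ifngr1* in the 3 CTL mice (167 against 159, 157 against 76.1 and 159 against 131 CPM per kb) and below it in the 3 *Prdm1*-CKO mice (137 against 171, 149 against 152 and 163 against 175 CPM per kb). This pair was singled out after its values were seen and was not tested. The switch depended on the length used. With exon bases shared with other genes left out, *Il2rg* was above *Ifngr1* in all 6 mice, and with coding length in the 3 CTL and 2 of the 3 *Prdm1*-CKO mice. Without CTL replicate 2 *Ifngr1* came first. With coding length in place of exon length, *Il2rb* passed *Ifngr1* and *Il6ra* passed *Il7r*. Leaving out exon bases shared with other genes, a choice made after seeing the data, put *Il2rg* at 223 and *Il12rb2* at 1.48 CPM per kb, still first and last.

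**Figure D4:**
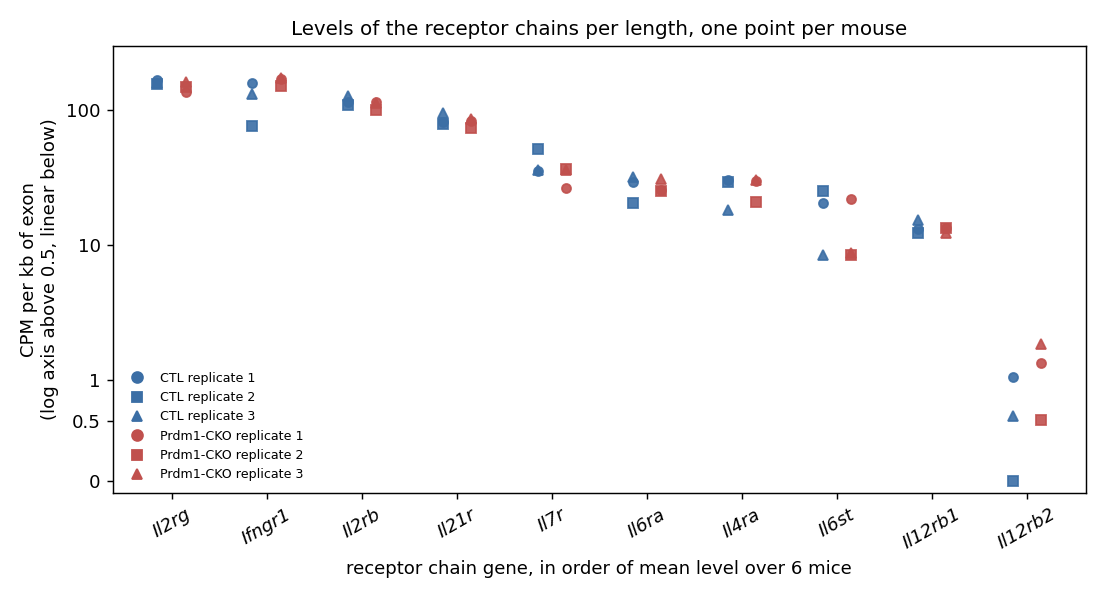
CPM per kb of exon of the 10 genes in each mouse, in order of the mean over 6 mice; the axis is logarithmic above 0.5 and linear below, colours give the group and symbols the replicate. *Il2rg*, *Ifngr1*, *Il2rb* and *Il21r* lie between 73.9 and 175 CPM per kb, and *Il12rb2* lies between 0 and 1.86.

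Ratios of chains that form a receptor were computed within each mouse, where library scaling cancels. Across the 6 mice, *Il2rg* exceeded each of its partner chains per kb. It was 1.18 to 1.49 times *Il2rb*, 1.63 to 2.04 times *Il21r*, 3.04 to 5.11 times *Il7r* and 4.53 to 8.7 times *Il4ra*. With coding length *Il2rg* exceeded *Il2rb* in 5 of the 6 mice and the other partners in all 6. *Il6st* was 0.699, 1.24 and 0.262 times *Il6ra* in CTL mice and 0.847, 0.338 and 0.283 times *Il6ra* in *Prdm1*-CKO mice. With coding length this ratio was 0.169 to 0.798, below 1 in all mice, and its mean fell from 0.611 to 0.394. The mean ratio of *Il2rg* to *Il7r* went from 4.32 to 2.75 in the same way. *Il12rb2* was at most 0.149 times *Il12rb1*, or at most 0.249 times with the exon bases shared with other genes left out. In that setting *Il2rg* was 1.69 to 2.15 times *Il2rb*. The groups overlapped in each of the 6 ratios.

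Some of the genes moved together over the mice. *Il2rb* and *Il21r* were at a distance of 0.09, and *Il27ra*, a chain of the IL-27 receptor, was nearer still to *Il2rb*, at 0.07. *Il4ra* was nearest to *Stat6*, the factor it activates, at 0.13, and *Stat6* was at 374, 352 and 216 CPM in CTL mice and 373, 270 and 351 CPM in *Prdm1*-CKO mice. *Ifngr1* was nearest to *Csf2ra* at 0.37 and then to its partner chain *Ifngr2* at 0.48, but without CTL replicate 2 neither was among its nearest 2, which were *Ifnar1* at 0.23 and *Il10rb* at 0.31. Without that mouse *Il27ra*, *Stat6* and *Jak1* were still nearest to *Il2rb*, *Il4ra* and *Il6st*, at 0.04, 0.13 and 0.72. Over the 6 mice, the distance from a flat pattern was 0.26 for *Il2rb*, 0.29 for *Il21r*, 0.73 for *Il4ra*, 1.01 for *Ifngr1* and 1.71 for *Il6st*. For *Il2rg* the nearest gene lay at 0.29, farther than a flat pattern at 0.23. A gene with even levels thus has small distances to other even genes, and each nearest gene was picked from 41. These distances describe 6 or 5 mice and are not tests.

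Among 30 other type I and II receptor chains, 21 were tested and 0 passed an adjusted p under 0.05 in edgeR. At an unadjusted p under 0.05, 1 was higher and 0 were lower, against 0.928% higher and 1.42% lower of all genes tested. The 1 higher chain was *Il13ra1*, which pairs with *Il4ra* in the receptor for IL-13. It was at 34.8 ± 11.9 CPM (SD, n = 3) in CTL and 56.8 ± 13.7 CPM (SD, n = 3) in *Prdm1*-CKO mice. The difference was 0.70 on the log2 scale (standard error 0.30, unadjusted p = 0.0439 and adjusted p = 0.996 from edgeR). Its groups overlapped, and it was at 28.4 and 27.4 CPM in CTL replicates 2 and 3, the mice with the lowest macrophage marker sums, whose part in its level was not tested. The largest log2 fold change in this list among those tested was that of *Epor* at 1.20 (standard error 1.08) and the lowest that of *Il11ra1* at -0.57 (standard error 0.47), and the adjusted p of both was 0.996 from edgeR. Without CTL replicate 2, in which *Epor* had 0 counts, the values were 0.63 for *Epor*, -0.08 for *Il11ra1* and 0.57 for *Il13ra1*, whose unadjusted p was then 0.0981 in edgeR. *Il23r*, the IL-23 chain that pairs with *Il12rb1*, was detected but did not pass the expression filter. It had 1, 0 and 0 counts in CTL mice and 10, 22 and 14 counts in *Prdm1*-CKO mice, so the groups did not overlap. Among the 21 tested chains of this list, 0 had groups without overlap in either direction, against 8.42% of all genes tested. *Il23r* was singled out after its values were seen, and no fold or test is given at these counts. The study reported higher *Il23r* in *Prdm1*-CKO Tfh cells by qPCR in separate mice. It also reported more IL-23R protein on these cells by flow cytometry. *Osmr*, *Ghr*, *Il20ra* and *Il22ra1* had 0 counts in all mice.

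Transcripts of the ligands were low, at no more than 41.8 CPM in any mouse. Of 10 ligand genes, 6 were tested, with 0 at an unadjusted p under 0.05 in either direction, against 2.35% of all genes tested. *Il21*, the main ligand made by Tfh cells, was at 14.5, 24.5 and 24.9 CPM in CTL mice and 41.8, 14.3 and 10.4 CPM in *Prdm1*-CKO mice. *Il4* had the largest log2 fold change, 0.28 (standard error 0.49), and *Il6* the lowest, -1.01 (standard error 0.94), and the adjusted p of both was 0.996 from edgeR. Without CTL replicate 2 the values were 0.02 for *Il4* and -0.30 for *Il6*. *Il13* had 0 counts in all mice.

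Downstream of the receptors, 12 genes that restrain cytokine signals and 12 genes known to respond to these cytokines were all tested. None of them had an unadjusted p under 0.05 in edgeR, against 2.35% of all genes tested. The 11 JAK and STAT genes were also all tested, and none had an unadjusted p under 0.05 in edgeR or groups without overlap. Among the JAK kinases the log2 fold change was largest in *Tyk2*, a kinase of the IL-12 receptor, at 0.23 (standard error 0.28), and lowest in *Jak2*, a kinase of the IFN-γ receptor, at -0.32 (standard error 0.41). Among the restraining genes it was largest in *Socs5* at 0.59 (standard error 0.36) and lowest in *Socs2* at -0.40 (standard error 0.45), and among the responding genes largest in *Irf1*, an interferon-induced transcription factor, at 0.22 (standard error 0.17). *Bcl2*, a survival gene downstream of IL-7, was at -0.34 (standard error 0.23). *Gata3*, a regulator of IL-4 production, was at 205, 256 and 266 CPM in CTL mice and 183, 203 and 190 CPM in *Prdm1*-CKO mice. Its groups did not overlap, and its log2 fold change was also -0.34 (standard error 0.15, unadjusted p = 0.0552 from edgeR). *Pias1* was the other gene without overlap among the restraining and responding genes (2 of 24, or 8.33%, against 8.42% of all genes tested). This restraining gene was at 129, 175 and 128 CPM in CTL mice and 121, 109 and 124 CPM in *Prdm1*-CKO mice. Without CTL replicate 2 the values were -0.31 for *Gata3*, -0.13 for *Pias1*, -0.12 for *Bcl2*, -0.05 for *Socs2* and 0.09 for *Irf1*, and *Jak2* turned to 0.29. Each adjusted p over 6 mice was 0.996 from edgeR. The median log2 fold changes were 0.04 in the restraining and 0.01 in the responding genes.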

How the data were processed

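Paired short reads from Smart-seq2 libraries were aligned by the authors to GRCm38. Gene counts came from featureCounts, and the submitters' processing notes also name STAR 2.4.2a and DESeq2. The deposited values are raw counts for 53379 genes, 1 library per mouse, with no normalization. Strand setting, multiply aligned reads and the counting of mates are not given in the sources used here. Identifiers were matched without version to GENCODE M21 on GRCm38 (53274 matched; 8 of the 10 genes in the same version), which also gave exon unions and coding lengths.

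Counts of 3 CTL and 3 *Prdm1*-CKO mice were tested with edgeR 4.0.16 in R 4.3.3 (filterByExpr, TMM, quasi-likelihood F test, no covariate), with Benjamini-Hochberg adjustment over 14555 genes. The study used DESeq2, run here (1.42.0) as an alternative. The quasi-likelihood F test reports no standard error, so it was taken as the size of edgeR's unshrunk log2 coefficient over the square root of F. Intervals are 95%, centred on edgeR's reported log2 fold change, from this approximate standard error and the test's degrees of freedom. Log2 CPM used a prior count of 2. Counting floors (3 counts) cover counting error only. Each mouse is a separate animal. Scripts were tested on simulated data. The genes, lists and tests were chosen with earlier results of these data known. Every one of the 10 genes is named; from the other lists, genes with an unadjusted p under 0.05 and the largest change in each direction are named, with genes used for a comparison of pattern or of markers. Alternatives were DESeq2's size factors and Wald test, other filters, the replicate number as a block, limma 3.58.1 voom with sample weights, immunoglobulin genes left out, other gene lengths and each mouse left out in turn. Leaving out shared exon bases, and CTL replicate 2 for patterns and pathway genes, was chosen after seeing the data. Protein sequences were not used here, and some marker and pathway results are not reported here.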

Additional observations from a re-analysis of the deposited data

How the results depend on the processing

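The 10 genes gave 129 log2 fold changes under the alternatives to the main fit, of which 120 kept their direction and 9 reversed, and none passed an adjusted p under 0.05. Voom with sample weights reversed *Il6ra* to -0.02. It also moved *Il7r* from -0.31 to -0.19, *Il4ra* from 0.06 to 0.12 and *Il21r* from -0.07 to -0.04. Leaving out each mouse in turn gave ranges that crossed 0 for *Il4ra* (-0.13 to 0.23), *Il21r* (-0.14 to 0.03), *Il6ra* (-0.17 to 0.15) and *Il12rb1* (-0.15 to 0.03). Over these fits *Il6st* ran from -1.05 to -0.15, *Il12rb2* from 0.62 to 2.19 and *Ifngr1* from 0.18 to 0.66. At an unadjusted p under 0.05, the count of higher genes was 1 (*Ifngr1*) without a filter and 1 with the replicate number as a block, against 0. It ran from 0 to 1 over the fits without a mouse (1 without CTL replicate 1, *Ifngr1*), as did the count of lower genes, from 0 to 1 (1 without *Prdm1*-CKO replicate 1, *Il6st*). Of all genes in those fits, 1.64%, 1.2% and 3.94% were higher without a filter, with the block and without CTL replicate 1, and 0.724% were lower without *Prdm1*-CKO replicate 1. The block moved *Il12rb2* to 1.88 and *Ifngr1* to 0.50. Same-numbered mice are different animals, and the correlations of their residuals were 0.16, 0.028 and 0.016, so the numbers were not taken as pairs. *Il12rb2* could not be tested with at least 10 counts in every mouse. With coding length, 6 of 10 genes kept their rank of level. Ratios of chains whose groups did not overlap numbered from 0 to 1 of 6 over the fits without a mouse, against 0. The cause of each change was not tested. *Il12rb2* had 0 to 103 counts per library, the fewest of the 10 genes.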
